A study of Homo sapiens with 6 samples.

Results

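Cells make cholesterol and fatty acids from the same acetyl-CoA, and both routes answer to the sterol regulatory element-binding proteins (SREBPs). SREBPs are transcription factors made as membrane proteins of the endoplasmic reticulum, where SCAP escorts them and INSIG proteins hold them back when sterols are plentiful. The product of SREBF2 acts mainly on genes of sterol synthesis and uptake, and the main product of SREBF1 acts on genes of fatty acid synthesis and desaturation. In the kidney, the proximal tubule burns fatty acids for most of its energy, and it stores those it does not burn as triglyceride.

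The 9 genes described here were 5 of the sterol route (INSIG1, HMGCS1, SQLE, MSMO1 and EBP) and 4 of the fatty acid route (SCD, FADS1, ELOVL6 and DGAT1), out of 14884 genes with a named probe set. They were chosen on the very difference between the groups that is given below, so their differences are a description with no test. All 9 were measured, and all lay above 4.43, the 20th percentile of the gene means, in both groups. RNA came from HK2, an established epithelial line of the human proximal tubule, grown in DMEM with serum. The control cells carried a pLKO.1 lentivirus with an shRNA against GFP, the other cells the same kind of vector with an shRNA against PGC-1alpha, a coactivator known for mitochondrial biogenesis. All cells were selected with puromycin and harvested on day 5, 24 hours after selection ended. Each group had 3 arrays, numbered as biological replicates, and values are log2 RMA units, in which 1 unit is a doubling.

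In limma 3243 of all genes (21.8%) had an adjusted p under 0.05, of which 1426 rose (9.58%) and 1817 fell (12.2%) with shPGC-1alpha. With each array centred on its own median the split turned to 1867 higher and 1440 lower. The target of the shRNA, PPARGC1A, was not analysed here. Among proximal tubule markers 7 of 16 were measured (1 rose and 2 fell), with PAX8 and DPP4 at 11.63 and 10.53 but the endocytic receptors CUBN and LRP2 at 3.92 and 3.97, below the 20th percentile. The summed linear level of the 7 went from between 4637 and 4816 with shGFP to between 5137 and 5306 with shPGC-1alpha. Of the 2 measured fibroblast markers of 6, both rose in limma (LUM by 0.76, DCN by 0.83). LUM had a mean of 8.95, but DCN, at 4.21, lay below the 20th percentile. The summed linear level of the 2 went from between 385 and 400 to between 624 and 705. Of the 2 leukocyte markers of 6, CD68 rose by 0.34 and CD14 stood at 0.24 without passing. Their sum went from between 2238 and 2341 to between 2766 and 2985, but it is nearly all CD68 (means 11.32 and 4.48). Of 5 adipocyte or hepatocyte markers of 8, and of 4 endothelial markers of 6, 0 passed in limma, with 0 and 1 at an unadjusted p under 0.05. The share of all genes at that unadjusted threshold was not counted. In either set the summed levels of the groups overlapped. The part of these markers in the results below was not tested, and in bulk RNA a change in the share of cells and a change in RNA per cell cannot be told apart.

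The sequence before each gene's start is shown for 5 genes because SREBPs are known to act on promoters beside the general factors NF-Y and Sp1. They are INSIG1 and MSMO1, which were higher, EBP and SCD, which were lower, and SREBF2, the regulator itself. Each is the 250 bases before the RefSeq start in GRCh38.p14, 5′ to 3′ on the gene's strand, with capitals at matches on either strand to CCAAT (the NF-Y box) or to CACNCCAC (a core of the sterol regulatory element). INSIG1 lies at chr7:155297628-155297877 (+), MSMO1 at chr4:165327419-165327668 (+), EBP at chrX:48521558-48521807 (+), SCD at chr10:100346983-100347232 (+) and SREBF2 at chr22:41832855-41833104 (+).
INSIG1: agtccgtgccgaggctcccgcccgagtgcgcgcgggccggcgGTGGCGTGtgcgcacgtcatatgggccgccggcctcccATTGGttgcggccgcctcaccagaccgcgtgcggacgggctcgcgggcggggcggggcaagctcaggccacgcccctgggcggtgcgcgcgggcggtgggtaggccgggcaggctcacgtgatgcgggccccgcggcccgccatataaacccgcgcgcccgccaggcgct
MSMO1: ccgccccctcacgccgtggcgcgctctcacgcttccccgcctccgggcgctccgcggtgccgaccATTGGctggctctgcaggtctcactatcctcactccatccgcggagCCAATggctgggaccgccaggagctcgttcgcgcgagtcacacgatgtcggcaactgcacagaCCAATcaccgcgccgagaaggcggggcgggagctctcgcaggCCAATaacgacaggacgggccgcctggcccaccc
EBP: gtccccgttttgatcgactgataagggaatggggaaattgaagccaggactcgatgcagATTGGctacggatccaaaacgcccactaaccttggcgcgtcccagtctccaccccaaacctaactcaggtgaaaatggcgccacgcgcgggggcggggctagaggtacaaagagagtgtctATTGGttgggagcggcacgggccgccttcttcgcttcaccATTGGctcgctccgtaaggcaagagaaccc
SCD: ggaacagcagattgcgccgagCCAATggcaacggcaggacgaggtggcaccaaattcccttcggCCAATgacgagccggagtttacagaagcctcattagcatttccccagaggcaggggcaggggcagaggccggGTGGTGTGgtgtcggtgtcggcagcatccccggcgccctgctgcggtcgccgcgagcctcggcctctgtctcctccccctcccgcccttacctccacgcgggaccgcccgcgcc
SREBF2: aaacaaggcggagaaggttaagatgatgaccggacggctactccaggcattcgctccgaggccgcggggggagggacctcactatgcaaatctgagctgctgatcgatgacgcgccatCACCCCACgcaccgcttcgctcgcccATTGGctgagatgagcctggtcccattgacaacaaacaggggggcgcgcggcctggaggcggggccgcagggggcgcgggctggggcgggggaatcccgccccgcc

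A promoter sequence was matched for 7 of the 9 genes, and those of SQLE and DGAT1 were not used here. CCAAT was found before 5 of the 7 (INSIG1, HMGCS1, MSMO1, EBP and SCD), against 37.0% of all 27305 genes with a match at any of their starts (32.0% of 35116 promoters of this length). HMGCS1 had 2 starts, of which the first held 2 copies and the second 0, and the other 6 genes had 1 start each. MSMO1 held 4 copies and EBP 3, and MSMO1 was higher and EBP lower with the shRNA against PGC-1alpha. CACNCCAC was found before INSIG1 and SCD, again a gene of each direction, and before SREBF2, against 5.89% of genes. The GC box GGGCGG, the Sp1 motif, was before all 7 and before 46.2% of genes, and 2 of the 5 copies of INSIG1 shared a base. The E-box CACGTG was before INSIG1 (7.73% of genes). No capital letters mark 2 motifs at once. FADS1 and ELOVL6 had matches to the GC box alone, which says only that the other letters are not in this window.

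**Figure D1:**
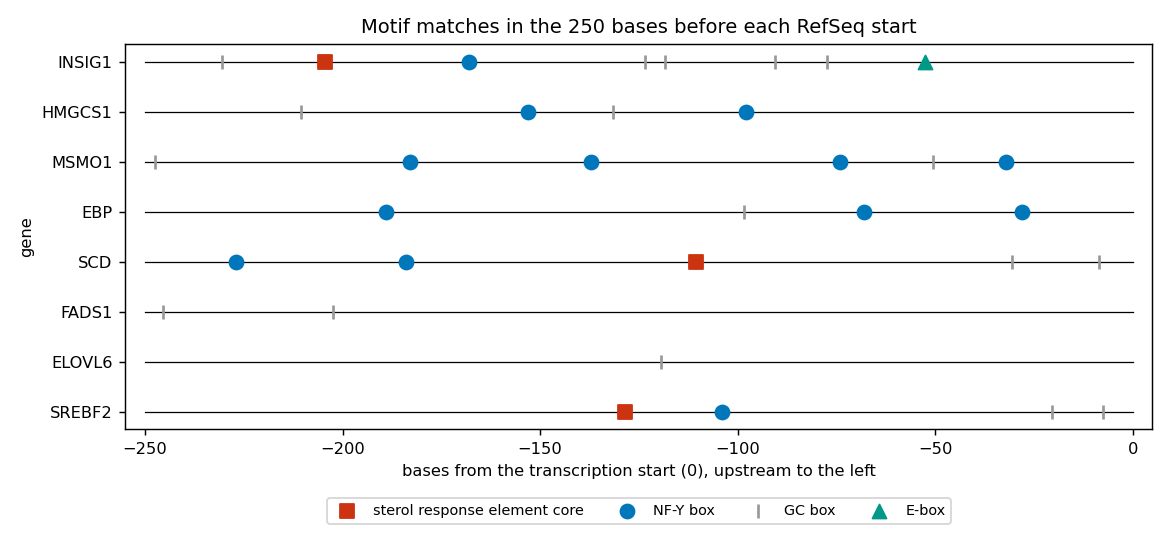
Positions of motif matches on either strand in the 250 bases before the RefSeq start of 7 of the 9 genes and SREBF2 (for HMGCS1 its first start), with the distance from the start in bases on the x axis. NF-Y boxes (circles) stand before the 4 sterol genes shown and SCD, and the sterol response element core (squares) before INSIG1, SCD and SREBF2.

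Of the sterol genes, INSIG1, HMGCS1, SQLE and MSMO1 were higher with the shRNA against PGC-1alpha and EBP was lower. INSIG1, the membrane protein that retains SREBPs in the endoplasmic reticulum, read 9.36, 9.36 and 9.28 on shGFP replicates 1 to 3 and 10.49, 10.49 and 10.41 on shPGC-1alpha replicates 1 to 3. The groups were 1.04 apart at their nearest arrays, far more than the spread inside either. The means were 9.33 ± 0.045 (SD, n = 3) and 10.46 ± 0.049, a log2 difference of 1.13 (SE 0.06) or 2.19-fold, and 87 of the 14884 genes had a larger increase.

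HMGCS1, the synthase that makes HMG-CoA at the entry to the pathway, read 8.03, 8.04 and 7.9996 with shGFP and 8.69, 8.78 and 8.78 with shPGC-1alpha. Its difference was 0.73 (SE 0.06), or 1.66-fold, and no array of 1 group came near the other. For SQLE, the squalene monooxygenase that carries out the first oxygenation of the route, the control arrays read 9.15, 9.06 and 9.08 and the others 9.68, 9.63 and 9.73. Here too the groups stood apart, with a gap of 0.49 and a difference of 0.59 (SE 0.06), or 1.501-fold.

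MSMO1, which oxidises methyl groups on the sterol ring so that they can be removed, read 10.00, 10.17 and 10.14 in the control and 10.63, 10.70 and 10.59 in the other group. Its control arrays were the most scattered of the 9 genes (SD 0.094), and replicate 1 was the low array, but the groups did not overlap. The difference was 0.54 (SE 0.07), or 1.45-fold. EBP, the isomerase that shifts a double bond in the sterol ring at a later step, went the other way. It read 8.72, 8.64 and 8.67 with shGFP and 8.46, 8.32 and 8.37 with shPGC-1alpha, a difference of -0.30 (SE 0.07), which is 1.23-fold lower. The nearest arrays of EBP were 0.18 apart, and 1882 genes had a larger decrease.

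**Figure D2:**
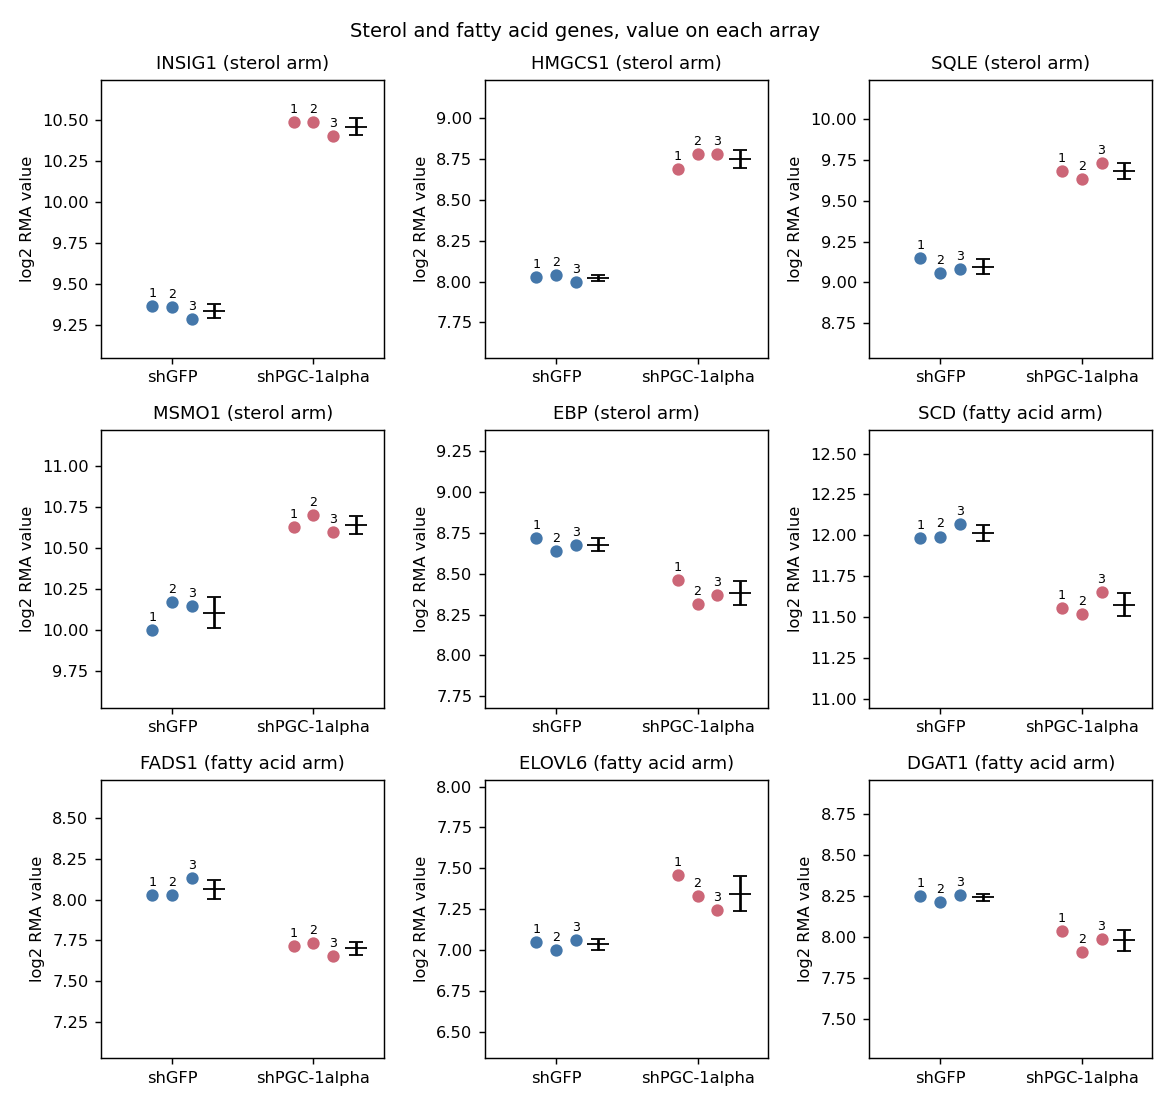
Log2 RMA value of each of the 9 genes on each of the 6 arrays (numbered points, blue for shGFP and red for shPGC-1alpha), with the mean and SD (n = 3) beside the points and the same span of the y axis in every panel. The groups do not overlap in any panel, and INSIG1 has the widest gap (1.04) and DGAT1 the narrowest (0.18).

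Of the fatty acid genes, SCD, FADS1 and DGAT1 were lower and ELOVL6 was higher. SCD, the desaturase that makes oleate and palmitoleate from saturated fatty acids, read 11.98, 11.99 and 12.07 with shGFP and 11.55, 11.52 and 11.66 with shPGC-1alpha. The groups were 0.33 apart, replicate 3 was the high array in both, and the difference was -0.44 (SE 0.07), which is 1.36-fold lower. SCD alone among the 9 genes had more than 1 probe set. The dimmer one read 6.46, 6.47 and 6.49 in the control and 6.48, 6.19 and 6.13 in the other group, so the groups overlapped through shPGC-1alpha replicate 1, and its difference was -0.20 (SE 0.10).

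FADS1, the desaturase that makes arachidonate from its precursor, read 8.03, 8.03 and 8.13 with shGFP against 7.72, 7.73 and 7.66 with shPGC-1alpha. The groups did not overlap, and the difference was -0.36 (SE 0.06), which is 1.28-fold lower. DGAT1 catalyses the last step of triglyceride synthesis, and its control arrays, at 8.25, 8.21 and 8.26, lay close together. With shPGC-1alpha they were at 8.04, 7.91 and 7.99, a difference of -0.26 (SE 0.06) or 1.1999-fold lower, exceeded by the decreases of 2218 genes.

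ELOVL6, the elongase that turns palmitate into stearate and so feeds SCD, was the exception on this side. Its control arrays read 7.05, 6.998 and 7.06 and the others 7.46, 7.33 and 7.25. The arrays with the shRNA against PGC-1alpha were the most scattered of the 9 genes in that group (SD 0.11), with replicate 1 the highest, but all 3 lay above the control. The difference was 0.31 (SE 0.07) or 1.24-fold.

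By arm, the median difference was 0.59 over the 5 sterol genes and -0.31 over the 4 fatty acid genes, against -0.02 over all genes. As a mean deviation from the control, the sterol genes stood at 0.54, 0.54 and 0.53 on shPGC-1alpha replicates 1 to 3, and the fatty acid genes at -0.15, -0.22 and -0.20. The 3 arrays thus gave nearly the same value for the sterol arm. Each arm held 1 gene against its direction: without EBP the sterol deviations were 0.73, 0.76 and 0.74, and without ELOVL6 the fatty acid deviations were -0.34, -0.39 and -0.34. EBP and ELOVL6 were left out for their direction on these same arrays, so the wider split follows from that choice. In each of the 9 genes the groups did not overlap, as for 38.7% of all genes (17.2% higher and 21.5% lower with shPGC-1alpha), and nothing is read from this because the choice used the same arrays.

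**Figure D3:**
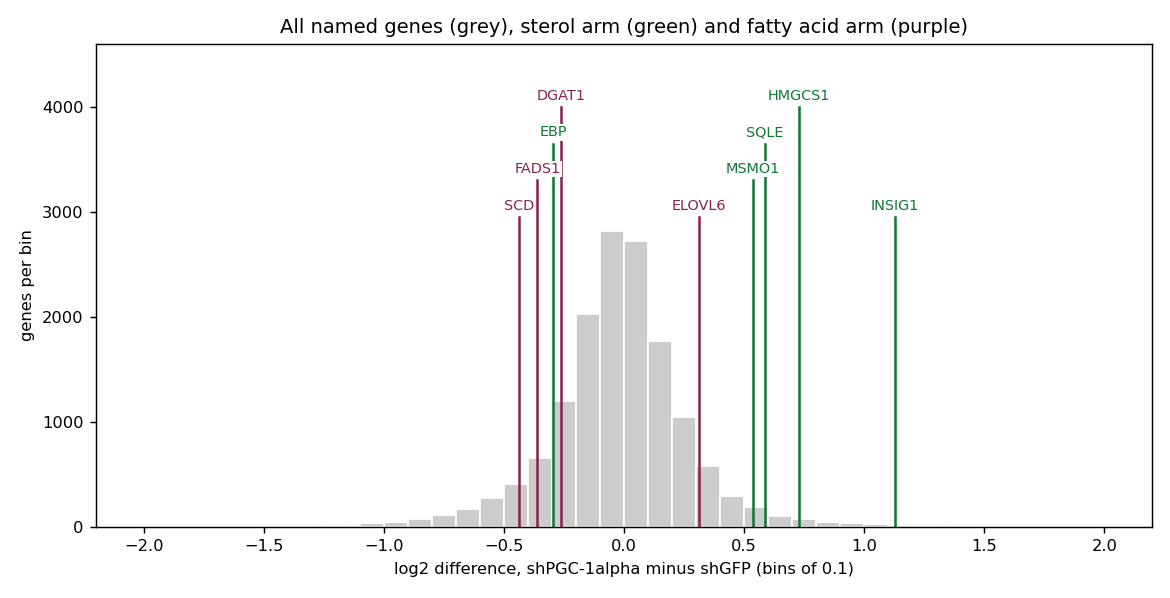
Number of genes (y axis) by log2 difference between the groups (x axis, bins of 0.1) for the named genes, with the 9 genes as vertical lines whose height carries no value. HMGCS1, SQLE, MSMO1 and INSIG1 (0.54 to 1.13) lie in the right tail, while EBP, DGAT1, FADS1, SCD and ELOVL6 lie nearer the bulk; genes beyond the axis are not drawn.

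The other genes of these pathways were taken from 7 lists of 146 genes in all, of which 88 were measured and were not among the 9. Of these 88, 21 rose and 9 fell in limma (34.1% called, against 21.8% of all genes), with a median difference of 0.09. Only 8 of the 88 lay below the 20th percentile of gene means, so all genes are a dimmer set. With the dim genes filtered out before the fit, 3661 of 11907 genes were called. The lists were written with earlier results of these arrays known.

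Among 13 other sterol synthesis enzymes, 4 rose and 0 fell in limma, or 30.8% called against 21.8% of all genes, and the median difference was 0.18. At an unadjusted limma p under 0.05 the counts were 7 and 0, with no share of all genes counted at that threshold. PMVK, the kinase of phosphomevalonate, read 6.81, 6.96 and 6.91 in the control and 7.32, 7.31 and 7.27 with shPGC-1alpha, so the groups stood apart. It rose by 0.40 (SE 0.07, limma adjusted p 0.0051). IDI1, the isomerase that makes the reactive isoprenoid unit, rose by 0.37 (SE 0.07, adjusted p 0.0083), and DHCR7, the reductase of the final step of cholesterol synthesis, by 0.38 (SE 0.08, adjusted p 0.011). LBR, a lamin B receptor that is also a sterol reductase, rose by 0.28 (SE 0.06, adjusted p 0.017). The enzymes that did not pass ran from -0.20 for TM7SF2 to 0.26 for HSD17B7 and ACAT2, and included FDPS at -0.03 and MVK at 0.00. In limma, LBR lost its call without shGFP replicate 2 (adjusted p 0.0605), shGFP replicate 3 (0.0568) or shPGC-1alpha replicate 2 (0.057). DHCR7 and LBR lost their limma calls when all 53617 probe sets were fitted and adjusted together (adjusted p 0.0537 and 0.0803).

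Of 9 other measured genes of sterol sensing and SREBP processing, 5 rose in limma, 0 fell and 4 did not pass, with a median of 0.28. That is 55.6% called, against 21.8% of all genes called in either direction and 9.58% called higher. At an unadjusted limma p under 0.05 the counts were 7 and 0, and the share of all genes at that threshold was not counted. Dropping single arrays gave 2 to 4 genes called higher, and fitting and adjusting all probe sets together gave 1. INSIG2, the paralog of INSIG1 with the same retaining role, read 8.19, 8.23 and 8.04 with shGFP and 8.91, 9.05 and 8.85 with shPGC-1alpha. These groups were 0.63 apart, and the rise was 0.79 (SE 0.08, limma adjusted p 0.00078), or 1.73-fold. SREBF2 read 8.14, 7.96 and 8.07 in the control against 8.43, 8.36 and 8.55. It rose by 0.39 (SE 0.08, adjusted p 0.013), while SREBF1 at 0.17 (adjusted p 0.13) and SCAP at 0.10 (adjusted p 0.35) did not pass.

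RNF145 and RNF139, ubiquitin ligases of the endoplasmic reticulum linked to SREBP control, rose by 0.34 and 0.28 in limma, and FAF2, which helps extract proteins from that membrane, by 0.31. These 3 calls were weak. RNF145 was lost without shGFP replicate 2 (adjusted p 0.0727), shPGC-1alpha replicate 1 (0.064) or shPGC-1alpha replicate 2 (0.0606). FAF2 was lost on dropping any array except shPGC-1alpha replicate 3 (0.0587 to 0.082), and RNF139 without any single array (0.0559 to 0.115) and with a replicate block (0.0792). The rise of SREBF2 was not called over all probe sets (0.0574), and SREBF1 was called after quantile normalization over the named genes (0.0471).

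Genes of sterol uptake, transport and storage moved in both directions. Of 14 measured, 3 rose and 2 fell in limma (35.7% called, against 21.8% of all genes), and the median was 0.00. NCEH1, a hydrolase of cholesterol esters, read 8.79, 8.89 and 8.83 in the control and 9.96, 10.00 and 9.91 with shPGC-1alpha. It rose by 1.12 (SE 0.06, limma adjusted p 7.6e-05), or 2.18-fold, about as far as INSIG1. SOAT1, which makes the esters that NCEH1 splits, had arrays at 9.96, 9.97 and 10.00 against 10.54, 10.57 and 10.54. Its rise of 0.57 (SE 0.06, adjusted p 0.0007) came with a gap of 0.54, and SOAT2, its paralog, was at 0.01. The lipoprotein receptor VLDLR rose by 0.38 (SE 0.06, adjusted p 0.0055).

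APOE, an apolipoprotein that carries cholesterol out of cells, fell by 0.44 (SE 0.07, limma adjusted p 0.0055) to a mean of 4.93, and GRAMD1C, a sterol transfer protein, fell by 0.46 (SE 0.10, adjusted p 0.016). The call of GRAMD1C was lost without shGFP replicate 2 (0.0589) or shGFP replicate 3 (0.0544). STARD4, a sterol carrier named after its values were seen, was at 0.34 (SE 0.10) and just missed the threshold (adjusted p 0.051).

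**Figure D4:**
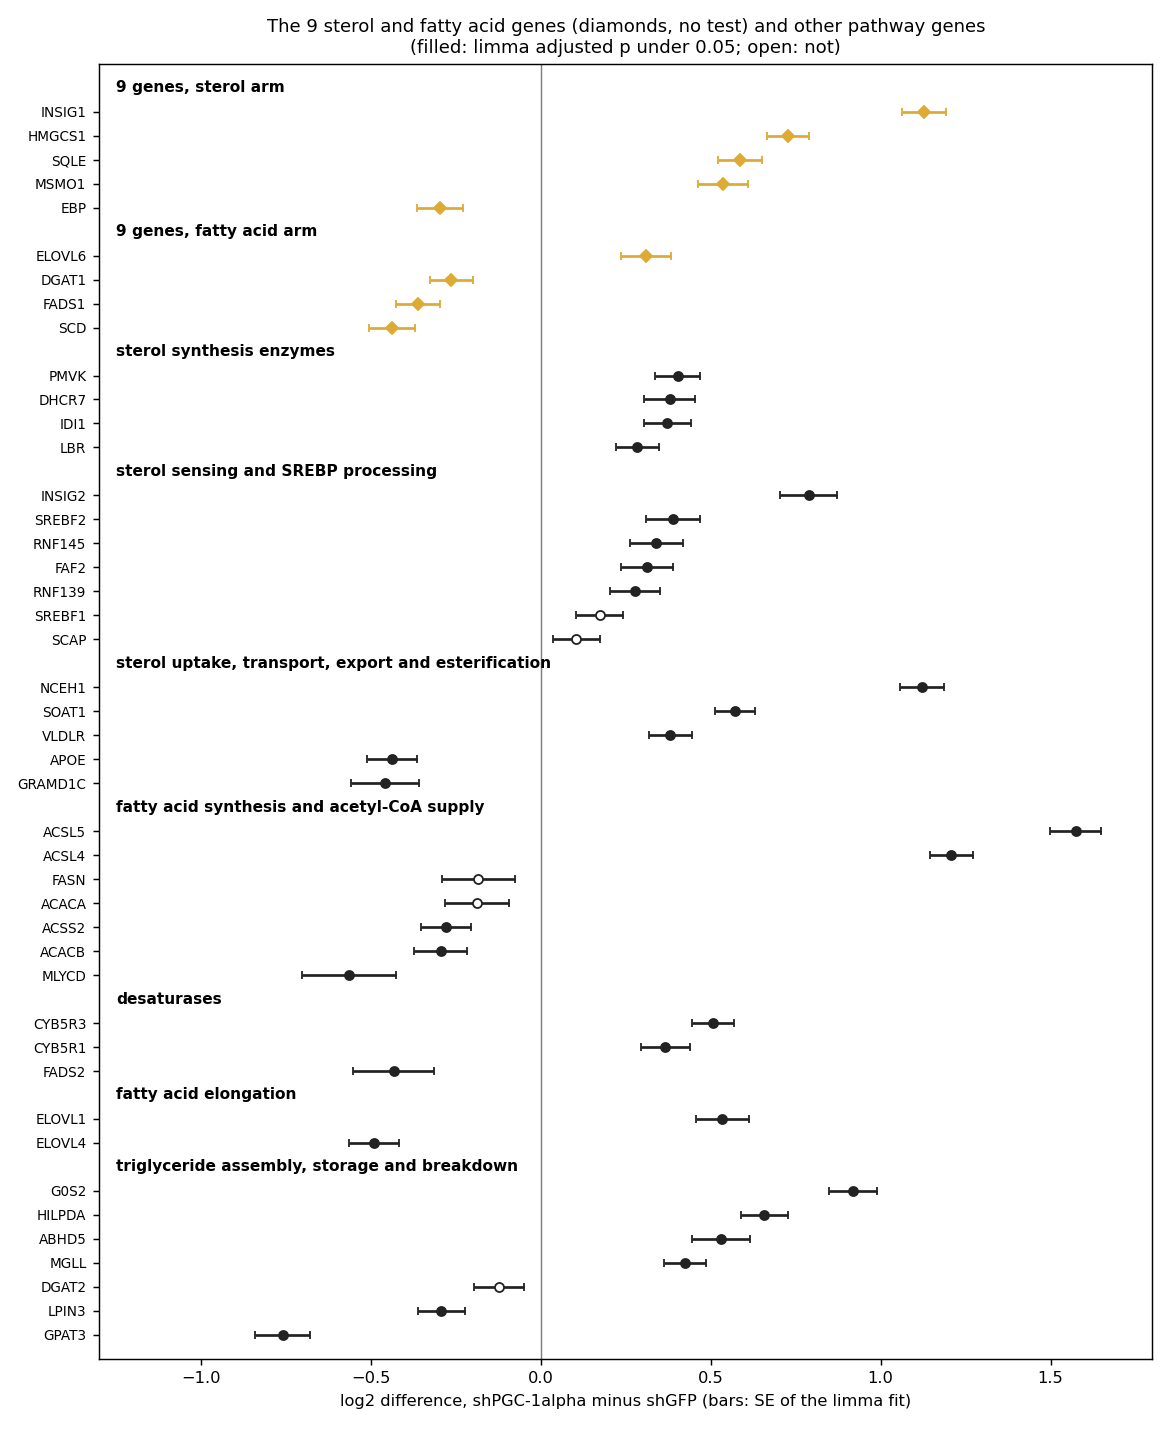
Log2 difference between the groups with its SE from the limma fit for the 9 genes (diamonds, no test) and for the named genes of 7 pathway lists (filled circles passed an adjusted p of 0.05, open circles did not). In the first 2 of these lists every filled circle lies right of 0. The list of sterol uptake has filled circles on both sides, and so do the lists of fatty acid genes, from -0.76 for GPAT3 to 1.57 for ACSL5.

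In fatty acid synthesis and activation, 2 genes rose and 3 fell of 11 measured, with a median of -0.18. That is 45.5% called, against 21.8% of all genes. The 2 that rose were acyl-CoA synthetases, which activate fatty acids and do not make them. ACSL5 read 6.24, 6.23 and 6.36 in the control and 7.93, 7.85 and 7.76 with shPGC-1alpha, a rise of 1.57 (SE 0.07, limma adjusted p 4e-05) or 2.98-fold. ACSL4, which favours arachidonate, the product of the FADS1 route, rose from 10.24, 10.23 and 10.16 to 11.41, 11.38 and 11.47, by 1.21 (SE 0.06, adjusted p 5.9e-05) or 2.31-fold. No array of either synthetase came within 1.1 units of the other group.

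The genes that fell were ACSS2, which makes acetyl-CoA from acetate, by 0.28, ACACB, the acetyl-CoA carboxylase at mitochondria, by 0.30, and MLYCD, which breaks down malonyl-CoA, by 0.57. The carboxylase ACACA stood at -0.19 (SE 0.09) and the synthase FASN at -0.18 (SE 0.11), with limma adjusted p of 0.21 and 0.29. ACLY, whose product is shared by both routes, was at 0.06. The 3 decreases were not firm. MLYCD was lost without shGFP replicate 1 (adjusted p 0.0713) or 2 (0.0826), ACSS2 on dropping any array except shPGC-1alpha replicate 3 (0.0628 to 0.103), and ACACB on dropping any except shPGC-1alpha replicate 1 (0.0642 to 0.0952). ACSS2 was also lost with a replicate block (0.07), and both ACSS2 and ACACB with arrays centred on their medians (0.0678 and 0.0673).

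Of 9 other genes of desaturation, 2 rose and 1 fell (33.3% called, against 21.8% of all genes), with a median of 0.11. FADS2, the desaturase that acts before FADS1 and whose gene lies beside it, read 6.60, 6.93 and 6.94 with shGFP and 6.53, 6.42 and 6.23 with shPGC-1alpha. The groups were only 0.07 apart, because shGFP replicate 1 lay near the other group. It fell by 0.43 (SE 0.12, limma adjusted p 0.041), and the call was lost without shGFP replicate 2 (0.125), shGFP replicate 3 (0.122), shPGC-1alpha replicate 2 (0.088) or shPGC-1alpha replicate 3 (0.119), with a replicate block (0.0846) and after either rescaling of the arrays (0.0558 and 0.0622).

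SCD5, the second stearoyl-CoA desaturase, was at 0.12, FADS3 at -0.08, and neither passed. The reductases CYB5R3 and CYB5R1 rose by 0.51 (SE 0.06, limma adjusted p 0.0015) and 0.37 (SE 0.07, adjusted p 0.011). CYB5R3 passes electrons through cytochrome b5 to desaturases and also to sterol enzymes such as MSMO1. Cytochrome b5 itself, CYB5A, was at -0.16 and did not pass. The call of CYB5R1 was lost over all probe sets (0.0523).

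Of 9 measured elongation genes other than ELOVL6, 1 rose and 1 fell, and the median was 0.01. That is 22.2% called, near the 21.8% of all genes. ELOVL1, which extends saturated and monounsaturated chains to very long ones, rose from 8.49, 8.43 and 8.48 to 8.95, 8.91 and 9.14, by 0.53 (SE 0.08, limma adjusted p 0.0032). ELOVL4, which makes still longer chains, fell from 6.74, 6.84 and 6.87 to 6.40, 6.22 and 6.36, by 0.49 (SE 0.07, adjusted p 0.0036). ELOVL5, the elongase of polyunsaturated chains that works between FADS2 and FADS1, was at 0.01 with overlapping groups.

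Around DGAT1, 4 of 23 other triglyceride genes rose and 2 fell, with a median of 0.01. That is 26.1% called, near the 21.8% of all genes. GPAT3, an acyltransferase of the first step of glycerolipid synthesis, read 6.84, 6.76 and 6.66 with shGFP and 5.94, 6.11 and 5.94 with shPGC-1alpha. It fell by 0.76 (SE 0.08, limma adjusted p 0.0008) or 1.69-fold, and the groups were 0.56 apart. DGAT2, the other enzyme of the last step, was at -0.12 (adjusted p 0.30), and the phosphatidate phosphatase LPIN3 fell by 0.29 (adjusted p 0.021).

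The 4 genes that rose were G0S2, HILPDA, ABHD5 and MGLL. G0S2 and HILPDA, small inhibitors of the lipase encoded by PNPLA2, rose by 0.92 (SE 0.07, limma adjusted p 0.00023) and 0.66 (SE 0.07, adjusted p 0.0008), while ABHD5, the activator of that lipase, rose by 0.53 (SE 0.09, adjusted p 0.0047). MGLL, which cleaves the last fatty acid from glycerol, rose by 0.42 (SE 0.06, adjusted p 0.0032). The lipase gene itself was at -0.08 and the droplet coat gene PLIN2 at 0.14, and neither passed. LPIN3 lost its limma call without shGFP replicate 1 (adjusted p 0.055), shGFP replicate 3 (0.0779), shPGC-1alpha replicate 1 (0.0657) or shPGC-1alpha replicate 2 (0.068).

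**Figure D5:**
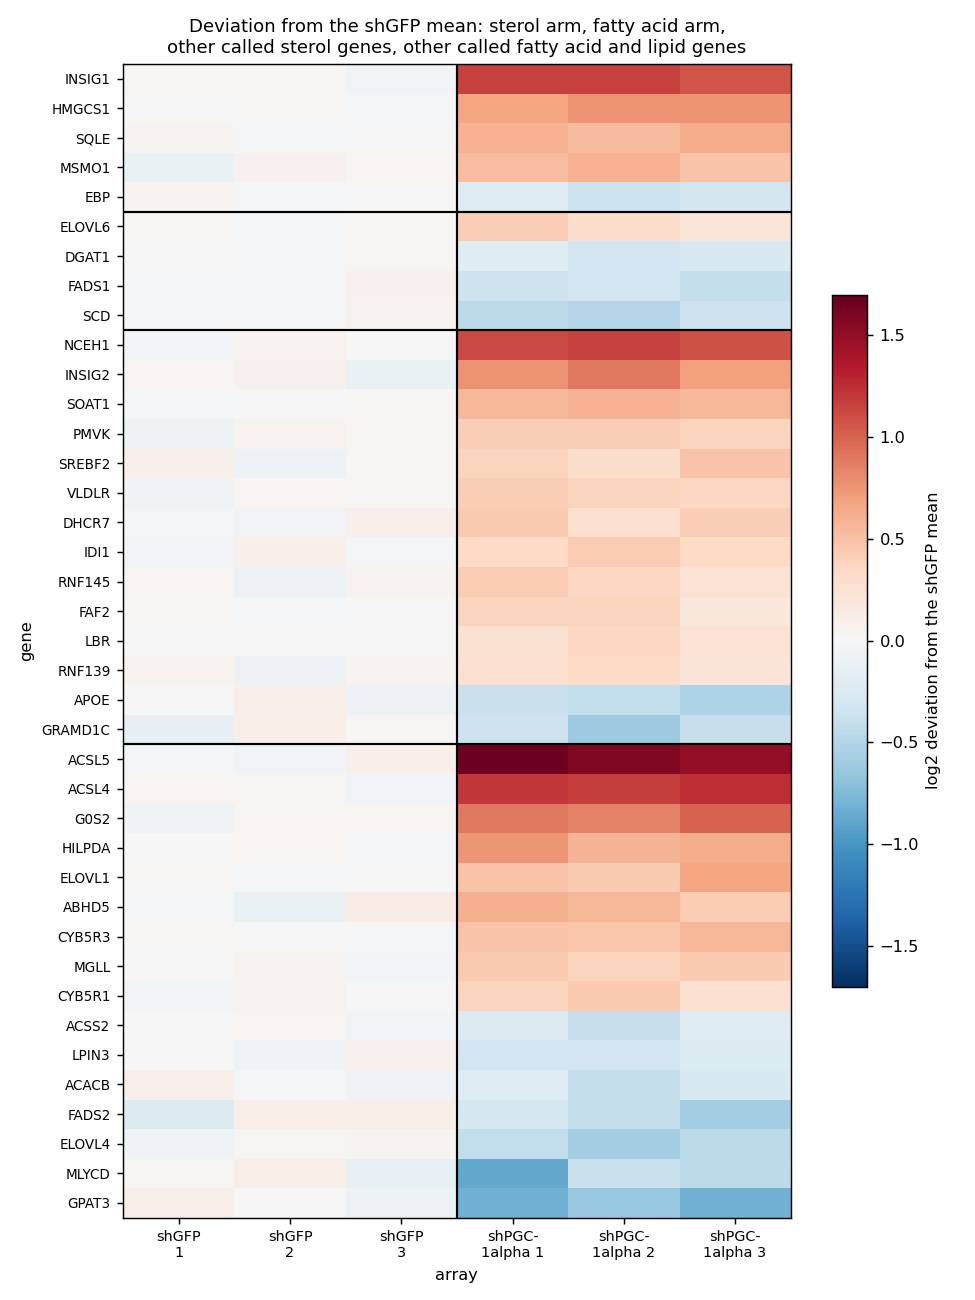
Log2 deviation of each array (columns) from the shGFP mean of each gene (rows), red above and blue below, for the sterol arm, the fatty acid arm and the 30 other pathway genes called in limma, in blocks split by lines. The 3 shPGC-1alpha arrays share a colour in every row, with MLYCD the least even (deviations deepest on replicate 1). Every row was chosen or called on these same arrays, so nothing is read from a shared colour.

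The genes whose 6 values were most like those of INSIG1 were IFNGR2 (Pearson r 0.9997), RASSF4, PSTPIP2, CPEB4 and NOCT (0.999). IFNGR2, a subunit of the interferon gamma receptor, read 6.92, 6.88 and 6.83 and then 7.97, 7.95 and 7.87, with replicate 3 lowest in both groups as for INSIG1. Those most like SCD were SLC9A3-OT1 (r 0.9983), RNF144A, CDT1, RHOBTB2 and NES (0.9969). CDT1, a replication licensing factor, read 8.96, 9.002 and 9.05 and then 8.58, 8.57 and 8.70. High r values were common over these 6 arrays, which share their groups: 679 of the 2676 candidate genes had r over 0.95 with INSIG1 and 487 with SCD.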

How the data were processed

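The authors deposited 1 table of log2 expression values for 53617 probe sets and 6 arrays of biotin-labelled cRNA. Per the submitters' processing notes the values come from RMA in Affymetrix Expression Console, with versions not given in the sources used here. Quantile normalization in RMA gives all arrays 1 distribution, which would shrink a shift shared by most transcripts. Values ran from 0.66 to 13.8 and array medians from 5.00 to 5.04. RMA values hold no counts or detection calls, so the number of arrays limits the precision.

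Probe sets were named through the platform's annotation table: 16098 had 1 gene, all matched RefSeq (GRCh38.p14) by gene ID, and the other probe sets were unnamed here. The probe set with the highest mean stood for each of 14884 genes. Titles gave each sample its group and replicate number. The titles call them biological replicates but do not say whether these were separate cultures. The p-values thus reflect only how far these samples spread, and how much of that spread is technical is not known.

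All genes were fitted together in limma 3.58.1 (R 4.3.3, lmFit and eBayes), shPGC-1alpha minus shGFP, with no block, and p-values were Benjamini-Hochberg adjusted over all genes. An exact permutation test of 3 arrays against 3 cannot give a p below 0.1. The script was tested on simulated data. The 9 genes, the lists and the marker genes were chosen with earlier results of these data known. Genes were named by rule: in each list the called genes, up to 6, by p, or 2 where none passed, plus SREBF1, SREBF2, SCAP, INSIG2, FASN, ACACA, FADS2 and DGAT2; other genes of that rule are not reported here. Other list genes are given to describe the rest and were picked after their values were seen. Genes most like INSIG1 and SCD were those with the highest Pearson r, among genes above the 20th percentile with an absolute log2 difference of at least 0.3 leaving out symbols of the LOC, LINC, MIR, SNORD, SNORA, RNU, orf and antisense kinds, so that other noncoding genes could be named. Alternatives were each array left out, a replicate block, a filter on dim genes, other probe sets, 2 rescalings and other variance models. A last alternative was fit and adjustment over all probe sets.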

Additional observations from a re-analysis of the deposited data

How the results depend on the processing

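The differences of the 9 genes kept their sign under each of their 12 alternatives. Of these 108 values, 34 could not move, since a block, a filter on dim genes or another probe set rule leaves the difference of a gene with 1 probe set as it is (for SCD, the block and the filter). Of the other 74, 66 moved by less than 1 SD. Those that moved more were SCD, at -0.20 with its dimmer probe set, -0.32 with the mean of both and -0.53 after quantile normalization over the named genes, and INSIG1, HMGCS1, SQLE, FADS1 and DGAT1 with arrays centred on their medians (1.18, 0.78, 0.64, -0.31 and -0.21). Of the 30 called list genes, 20 were called with any 1 array left out and 17 under every alternative. Over all genes, leaving out 1 array gave 2328 to 2578 calls against 3243.

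With any 1 array left out, the genes called lower were 0 to 1 in desaturation, 0 to 2 in fatty acid synthesis, 1 to 2 in elongation, 1 to 3 in sterol uptake and 1 to 2 in triglyceride genes. Those called higher were 2 to 4 in sterol sensing and 1 to 2 in elongation. Fitted and adjusted over all probe sets, 767 genes were called higher and 970 lower. That left 2 higher in sterol synthesis, 1 in sterol sensing and 1 in desaturation, and 0 lower in desaturation and fatty acid synthesis and 1 each in sterol uptake and triglyceride genes. Without variance moderation, 0 were lower in desaturation and fatty acid synthesis, 1 in sterol uptake, and 2 were higher in sterol sensing. With arrays centred on their medians, 0 desaturation and 1 fatty acid synthesis gene were lower and 2 elongation genes higher, and with quantile normalization 0 and 2 genes of desaturation and elongation were lower. A variance trend with robust fitting gave 2 lower in each of these lists, and a filter on dim genes gave 2 elongation genes higher. The cause of these changes was not tested. Taking all probe sets brought more tests and also a new fit of the variance moderation over all of them.

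Same-numbered arrays of the groups had deviations correlated at 0.12, 0.09 and 0.02 over genes. shGFP replicates 1 and 2 correlated best with the array of their own number, and shGFP replicate 3 with shPGC-1alpha replicate 2 (0.06). Whether the numbers pair the samples was thus left unsettled, and the main fit held no block. With a replicate block, 1221 genes were called higher and 1552 lower, 0 desaturation genes were lower, and 3 of the 30 list calls (RNF139, ACSS2 and FADS2) were lost.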
